A study of Mus musculus with 6 samples.

Results

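The collagen genes were taken as all genes of the deposited CPM table whose name has the form Col, a number, the letter a and a number, with the exception of Col17a1, the transmembrane collagen of hemidesmosomes. Of 21948 genes in that table, 41 met this rule. They were grouped by the kind of structure their proteins build, as 11 fibrillar, 9 basement membrane and 21 other collagens. A filter on low counts kept 36 of them among 17757 genes tested. The 5 that did not pass it were Col9a2, Col9a3, Col19a1, Col25a1 and Col26a1, all among the other collagens, with 6 to 27 counts over the Plg KO libraries and 8 to 28 over the Plg WT libraries.

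Gene expression was measured by RNA sequencing in gingiva, the mucosa around the teeth, of C57BL/6 mice at 12 weeks of age. The Plg KO group lacked Plg, which encodes plasminogen, the precursor of the fibrin-dissolving protease plasmin, and the Plg WT group were wild-type littermates. Each group had 3 libraries, and the labels name no further allele or treatment. They do not say whether a library came from 1 animal or from several, so p-values measure only the spread between libraries, which may be technical.

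Total gene counts were 26183389 to 36429150 per library. Plg itself had 2 counts over the 3 Plg KO libraries and 2 over the 3 Plg WT libraries, so it gives no check of the labels. Keratinocyte markers summed to 38838 to 46859 CPM in Plg KO and 36777 to 44132 CPM in Plg WT, so the squamous epithelium of this tissue was well represented. Ddx3y, on the Y chromosome, had 1838 counts in Plg KO 1 and 1475 in Plg WT 3 and at most 2 elsewhere, so each group held 1 library with Y-linked transcripts. CPM here means counts scaled to library size with TMM factors, a correction for differences in library composition.

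Collagens are the main structural proteins of connective tissue. Their chains wind around each other in helices made of a repeated unit that starts with glycine, called Gly-X-Y. Fibrillar collagens such as types I, III and V pack into the fibres that bind gingiva to tooth and bone. Type IV forms the network of basement membranes, and type VII anchors that network to the fibres beneath. Fibroblasts make most fibrillar collagen, and in gingiva it is turned over quickly.

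The repeat can be read in the coding exons. The first coding exon of 54 bases made wholly of such repeats is shown for 4 fibrillar collagens, because it makes the unit of the helix visible, with the glycine codons in capitals. Each holds 6 glycine codons. The sequences are from GENCODE release M21 on GRCm38, and give coding exon 8 of Col1a1 (chr11:94939904-94939957, plus strand) and of Col1a2 (chr6:4515481-4515534, plus strand) and coding exon 6 of Col3a1 (chr1:45325360-45325413, plus strand) and of Col5a2 (chr1:45434892-45434945, minus strand).
Col1a1: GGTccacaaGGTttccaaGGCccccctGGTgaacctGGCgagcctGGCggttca
Col1a2: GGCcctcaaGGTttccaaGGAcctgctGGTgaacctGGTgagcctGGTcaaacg
Col3a1: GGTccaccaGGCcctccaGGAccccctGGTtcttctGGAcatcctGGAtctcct
Col5a2: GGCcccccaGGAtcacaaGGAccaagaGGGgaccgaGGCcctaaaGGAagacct

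The anchoring fibril collagen Col7a1 uses shorter units. Its coding exon 33 (chr9:108964050-108964085, plus strand) has 36 bases and 4 glycine codons, and 26 of its 118 coding exons have this length.
Col7a1: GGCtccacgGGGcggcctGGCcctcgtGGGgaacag

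Since the classes follow the structure of the proteins, the repeat runs describe them and are no separate result. In the fibrillar genes the longest unbroken run of glycine-led repeats had 216 to 344 repeats, with a median of 338. The run was 30 to 75 repeats in the basement membrane genes and 23 to 113 in the others. Exons of 54 bases made up 41.2% to 55.0% of the coding exons of each fibrillar gene and 2.13% to 7.32% of those of each basement membrane gene. Among the other collagens the share was 0% to 44.4%, highest in Col22a1, Col9a2 and Col9a3, which encode collagens that sit on fibrils or at tissue junctions.

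**Figure D1:**
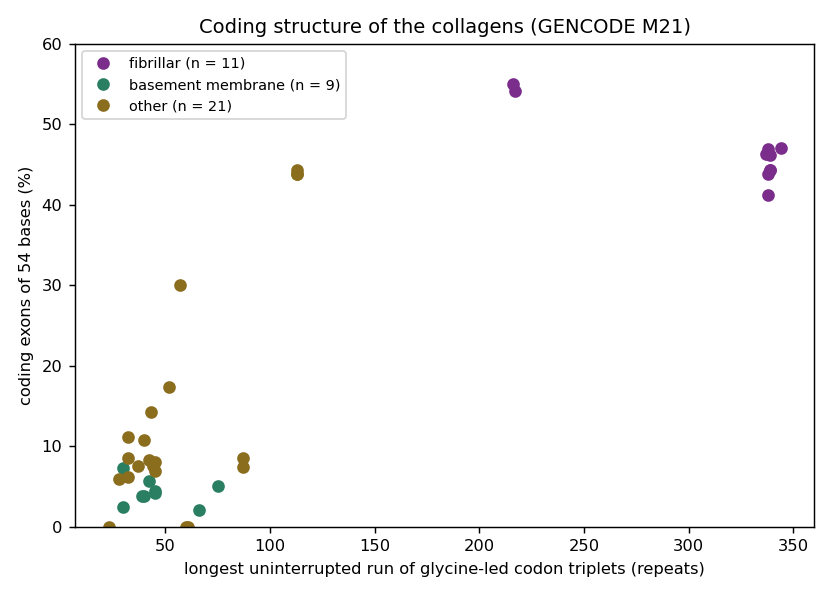
Longest unbroken run of glycine-led codon triplets (x axis, repeats) against the share of coding exons that are 54 bases long (y axis, percent), 1 point per collagen gene, coloured by class, from GENCODE M21 transcripts. The 11 fibrillar genes lie apart at 216 repeats or more, and the 9 basement membrane genes lie at 75 repeats or fewer.

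In these libraries 3 fibrillar genes held most collagen transcripts. Col1a1, Col1a2 and Col3a1, the chains of types I and III, took 83.7%, 78.2% and 83.6% of all collagen counts in Plg KO 1, 2 and 3, and 82.5%, 87.1% and 81.6% in Plg WT 1, 2 and 3. Per length, as CPM per kilobase of exon sequence, Col1a1 averaged 112 ± 37.8 in Plg KO and 139 ± 68.7 in Plg WT (SD, n = 3 each). Col3a1 averaged 56.0 ± 11.6 in Plg KO and 76.9 ± 13.3 in Plg WT, and Col1a2 31.3 ± 11.6 in Plg KO and 43.5 ± 16.6 in Plg WT. Per length, Col1a1 lay above Col3a1, and Col3a1 above Col1a2, in 6 of 6 libraries. Over the Plg WT libraries the ranges of Col1a1 and Col3a1 overlapped. Their order also depends on the exon lengths used, 6563 bases for Col1a1 and 9816 for Col3a1. By counts alone, Col3a1 lay above Col1a1 in Plg WT 1 and Plg WT 3, where the ratio of Col1a1 to Col3a1 was 0.994 and 0.916. The next genes in order were Col6a1, a chain of the beaded microfibrils, with 7.18 ± 1.48 in Plg KO and 9.74 ± 1.34 in Plg WT, then Col5a2 and Col18a1. Col5a2 lay above Col18a1, and Col18a1 above Col4a1, in 4 of 6 libraries only, and these neighbours did not differ beyond their spread. Exon length here joins the exons of all annotated transcripts, so genes with many long transcripts are understated. Col2a1, the collagen of cartilage, had 0.120 ± 0.155 in Plg KO and 0.160 ± 0.152 in Plg WT. In the table of raw counts, Col9a1 and Col10a1, both known from cartilage, had at most 3 counts in any library.

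No collagen gene passed the test for a difference between Plg KO and Plg WT. Most had a lower mean level in Plg KO, and in 30 of 36 the libraries of the groups overlapped. Of 36 tested, 0 had a p under 0.05 in the quasi-likelihood F test of edgeR after Benjamini-Hochberg correction over 17757 genes. By that rule 0.237% of all genes were called, 0.191% higher and 0.0451% lower in Plg KO. DESeq2 and limma-voom also called 0. The smallest adjusted p was 0.455, for Col5a3. On simulated data edgeR called 32 of 95 genes changed 2-fold, so a count of 0 does not exclude changes of that size. At an unadjusted p under 0.05 there were 2 collagens lower in Plg KO, Col3a1 and Col6a1, or 5.56% of them, against 4.27% of all genes. In the other direction there was 1, Col5a3, or 2.78%, against 4.97% of all genes, and 9.25% of all genes reached that level in either direction. The count lower in Plg KO was 1 without Plg KO 1, Plg KO 2, Plg WT 1 or Plg WT 2, 6 without Plg WT 3 and 11 without Plg KO 3. The count higher was 0 without Plg KO 3 or Plg WT 3. The 3 Plg KO libraries lay below the 3 Plg WT libraries in 4 collagens, Col14a1, Col20a1, Col27a1 and Col28a1, or 11.1%, against 7.18% of all genes, and above them in 2, Col5a3 and Col6a5, or 5.56%, against 7.51%.

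The log2 change of Plg KO over Plg WT was negative in 30 of 36 collagens, or 83.3%, against 50.8% of all genes. Their median was -0.38, with -0.00 over all genes. The medians were -0.46 for the fibrillar class, -0.11 for the basement membrane class and -0.43 for the others, which is a description of the genes and not a test. In bulk tissue, fewer collagen-making cells and less collagen RNA per cell cannot be told apart. The medians of all collagens, of the fibrillar class and of the others rested on 2 libraries in particular, Plg WT 2 and Plg KO 2. Negative changes numbered 28 of 38 tested collagens without Plg WT 2, 30 of 38 without Plg KO 2 and 25 of 38 without both. They numbered 27 of 36 without Plg KO 1. Without Plg WT 2 the median of all collagens was -0.24 and that of the fibrillar class -0.19. Without Plg KO 2 the same medians were -0.25 and -0.21, and with both libraries left out -0.11 and -0.045. The median of the other collagens was -0.24 without Plg WT 2 and -0.28 without Plg KO 2. For the basement membrane class the median was -0.07 without Plg WT 1, -0.22 without Plg WT 2 and -0.05 without Plg WT 3. It was -0.00 without Plg KO 1, -0.08 without Plg KO 2 and -0.22 without Plg KO 3.

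**Figure D2:**
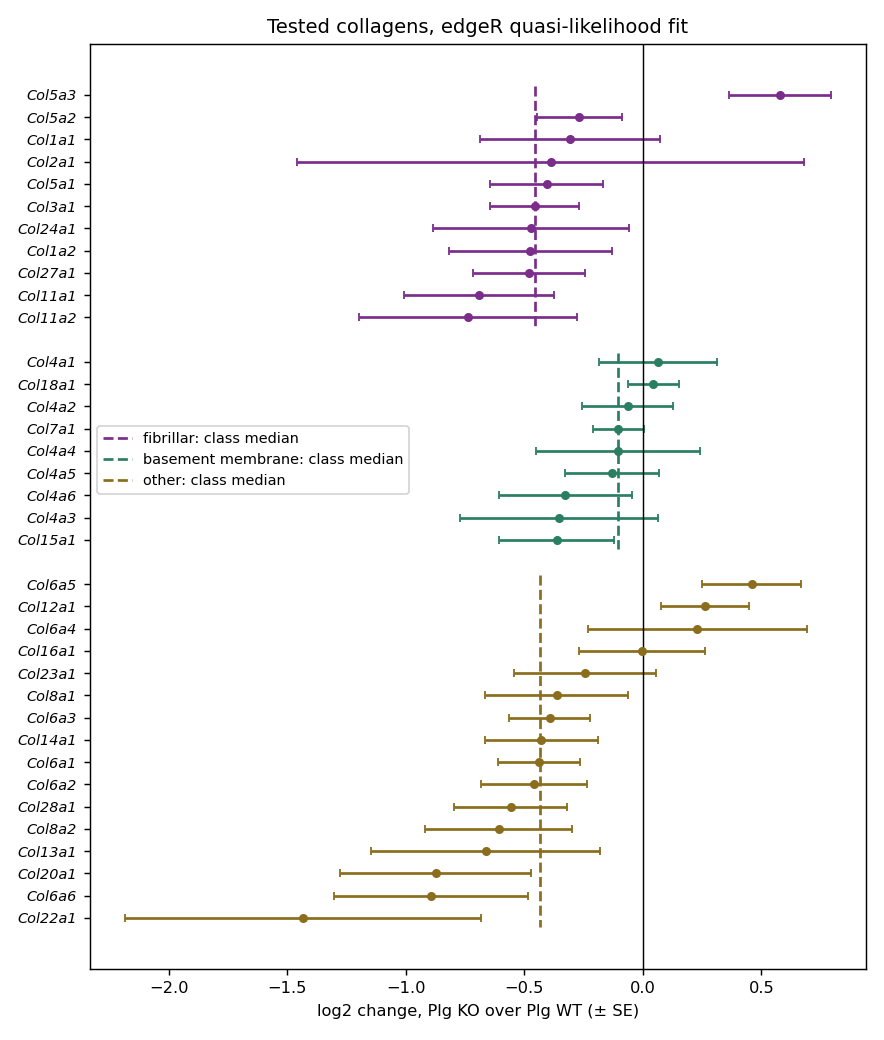
Log2 change of Plg KO over Plg WT (x axis, points, with bars of 1 SE from the edgeR fit) for the 36 tested collagens (y axis), grouped by class. Dashed lines are the class medians of -0.46, -0.11 and -0.43, and 30 of the 36 points lie below 0.

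Among fibrillar collagens, Col1a1 (ENSMUSG00000001506, GRCm38 chr11:94936224-94953042) encodes the main chain of type I. It had 832, 457 and 924 CPM in Plg KO 1, 2 and 3, against 724, 1428 and 587 CPM in Plg WT 1, 2 and 3. The groups overlapped widely, since Plg WT 2 was the highest library, Plg KO 2 the lowest, and Plg KO 1 and 3 lay above Plg WT 1 and 3. The log2 change was -0.31 ± 0.38 (SE; adjusted p = 0.870 in edgeR's test), and was -0.055 without Plg KO 2 and 0.17, of the other sign, without Plg WT 2. With both Plg KO 2 and Plg WT 2 left out, it was 0.42.

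Col1a2 (chr6:4504814-4541544), the partner chain of type I, had 423, 231 and 513 CPM in Plg KO, against 436, 779 and 408 CPM in Plg WT. It followed Col1a1 from library to library. Its log2 change was -0.47 ± 0.34. It was -0.12 without Plg WT 2, -0.21 without Plg KO 2, -0.73 without Plg KO 3 and 0.15 without both Plg KO 2 and Plg WT 2. For Col3a1 (chr1:45311538-45349706), which forms type III fibres often mixed with type I, the levels were 577, 425 and 648 CPM in Plg KO and 728, 897 and 640 CPM in Plg WT. Plg KO 3 lay just above the lowest Plg WT library, so the groups overlapped. The log2 change was -0.46 ± 0.19 (adjusted p = 0.513 in edgeR's test), or -0.30 without Plg KO 2.

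The type V and XI chains are minor partners that start and limit fibril growth. Col11a1 (chr3:114030540-114220718) had 7.99, 4.62 and 10.1 CPM in Plg KO, against 11.5, 16.2 and 9.16 CPM in Plg WT, with a log2 change of -0.69 ± 0.32, or -0.44 without Plg KO 2 and -0.45 without Plg WT 2. Here too Plg KO 2 was lowest and Plg WT 2 highest. Col5a3 (chr9:20770050-20815067), a further type V chain, was the exception in the class. It had 6.99, 6.95 and 10.1 CPM in Plg KO, against 6.39, 4.46 and 5.25 CPM in Plg WT, so every Plg KO library lay above every Plg WT library. Its log2 change was 0.58 ± 0.22 (adjusted p = 0.455 in edgeR's test), or 0.38 without Plg KO 3. The other 6 fibrillar genes, Col2a1, Col5a1, Col5a2, Col11a2, Col24a1 and Col27a1, had log2 changes of -0.74 to -0.27 and adjusted p of 0.608 to 0.953. Among these, Col27a1 had groups that did not overlap, with 3.54, 3.30 and 2.47 CPM in Plg KO and 3.60, 5.36 and 4.04 CPM in Plg WT.

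**Figure D3:**
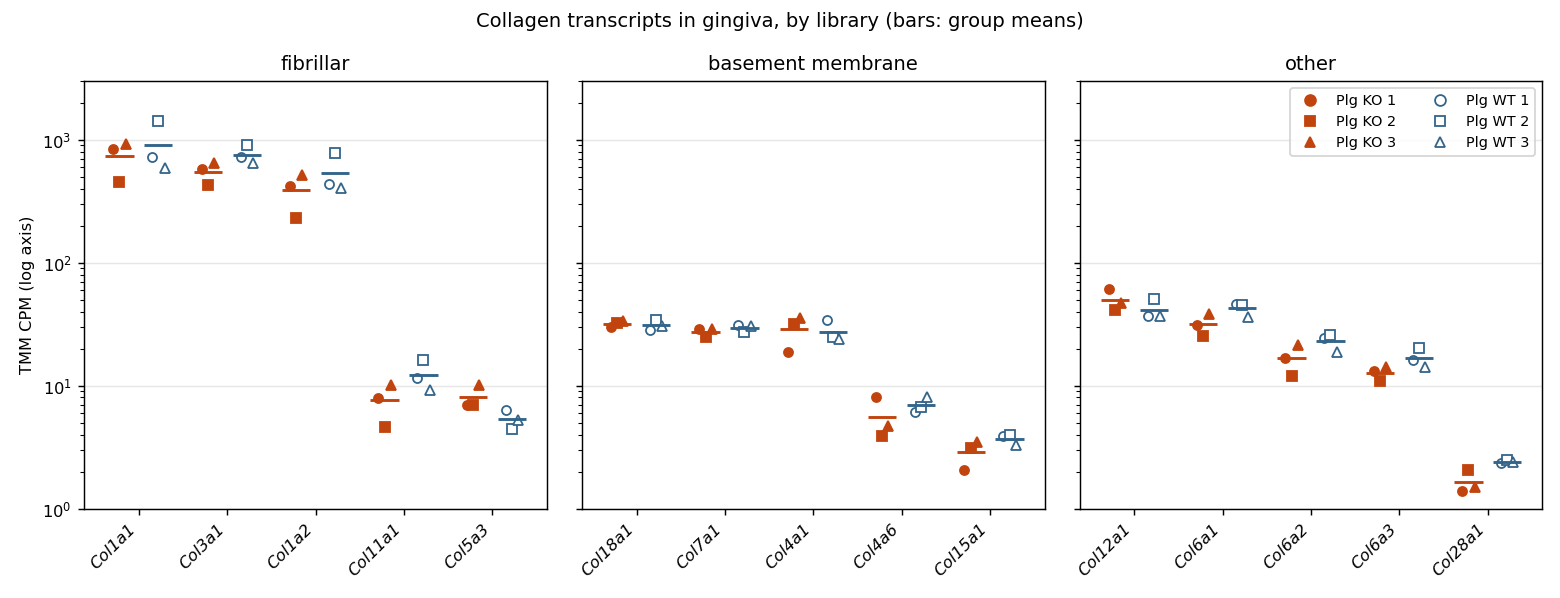
TMM CPM on a log axis (y) for the 15 collagens given in full (x), 1 point per library with a symbol for each replicate number, Plg KO in filled and Plg WT in open symbols, bars at group means. Plg KO 2 is the lowest and Plg WT 2 the highest library for Col1a1, Col1a2, Col3a1 and Col11a1.

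Basement membrane collagens had log2 changes of -0.36 to 0.06, and the libraries of the groups overlapped in all 9. Col18a1 (chr10:77052178-77166548), which carries the endostatin fragment at its end, had 30.1, 32.1 and 33.3 CPM in Plg KO, against 28.1, 34.2 and 30.3 CPM in Plg WT, with a log2 change of 0.04 ± 0.11. Col7a1 (chr9:108953586-108984875), the anchoring fibril collagen made by keratinocytes, had 28.6, 24.9 and 29.0 CPM in Plg KO, against 31.0, 27.1 and 30.6 CPM in Plg WT, with -0.10 ± 0.11, or -0.037 without Plg KO 2 and -0.16 without Plg WT 2. These were the collagens with the smallest standard errors, and their groups overlapped.

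The widely used type IV chain Col4a1 (chr8:11198423-11312826) had 18.9, 31.8 and 35.5 CPM in Plg KO, against 34.0, 24.7 and 23.8 CPM in Plg WT. Its log2 change of 0.06 ± 0.25 took the other sign without Plg WT 2 (-0.0085), Plg WT 3 (-0.032), Plg KO 2 (-0.016) or Plg KO 3 (-0.12), and was 0.29 without Plg KO 1 and 0.24 without Plg WT 1. Plg KO 1 was the lowest library for Col4a1 and for 4 more of the 9 genes. Col4a6 (chrX:141165403-141474076), a type IV chain of epithelial basement membranes, had 8.02, 3.88 and 4.68 CPM in Plg KO, against 6.14, 6.75 and 8.01 CPM in Plg WT, and the log2 change was -0.33 ± 0.28. It was -0.70 without Plg KO 1, -0.13 without Plg KO 2, and -0.22 without Plg KO 3 or without Plg WT 3. Plg KO 1 reached the level of the highest Plg WT library. Col15a1 (chr4:47208161-47313167), a proteoglycan collagen of vessel and muscle basement membranes, had 2.05, 3.11 and 3.50 CPM in Plg KO, against 3.90, 3.93 and 3.30 CPM in Plg WT, with -0.36 ± 0.24, or -0.17 without Plg KO 1. The other 4, Col4a2 to Col4a5, had log2 changes of -0.35 to -0.07 and adjusted p of 0.864 to 0.961 in edgeR's test.

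Among other collagens, Col6a1, Col6a2 and Col6a3, the chains of the type VI beaded filaments around cells, had lower mean levels in Plg KO. Col6a1 (chr10:76708792-76726168) had 31.0, 25.2 and 38.1 CPM in Plg KO, against 46.5, 45.6 and 35.9 CPM in Plg WT. Plg WT 3 lay between the Plg KO libraries, so the groups overlapped. The log2 change was -0.44 ± 0.17 (adjusted p = 0.484 in edgeR's test). Col6a2 (chr10:76595762-76623630) had 16.6, 12.0 and 21.5 CPM in Plg KO, against 24.4, 25.8 and 18.8 CPM in Plg WT, with -0.46 ± 0.22, or -0.27 without Plg KO 2. Col6a3 (chr1:90765923-90843971) had 13.1, 10.8 and 14.3 CPM in Plg KO, against 16.0, 20.1 and 14.1 CPM in Plg WT, with -0.39 ± 0.17, or -0.24 without Plg WT 2. The 3 chains assemble into 1 molecule, and all 3 showed the same order of Plg KO 2 lowest and Plg WT 3 lowest among Plg WT.

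Col12a1 (chr9:79598991-79718831), which sits on the surface of type I fibrils, went the other way in its mean. It had 61.0, 41.1 and 47.3 CPM in Plg KO, against 37.1, 50.9 and 36.6 CPM in Plg WT, a log2 change of 0.26 ± 0.19, which was 0.086 without Plg KO 1 and 0.44 without Plg WT 2. Plg WT 2 was again high, and the groups overlapped. Col28a1 (chr6:7997808-8192617), a collagen found around Schwann cells in mouse nerve, had 1.38, 2.06 and 1.49 CPM in Plg KO, against 2.35, 2.50 and 2.37 CPM in Plg WT. All Plg KO libraries lay below all Plg WT libraries, with a log2 change of -0.56 ± 0.24 (adjusted p = 0.543 in edgeR's test). Of the further type VI chains, Col6a6 had a lower mean level in Plg KO and Col6a4 and Col6a5 a higher one. Col6a5 had 2.65, 2.33 and 2.24 CPM in Plg KO and 1.64, 1.86 and 1.76 CPM in Plg WT. Col14a1, a second fibril-surface collagen, had 3.51, 5.79 and 5.88 CPM in Plg KO and 7.97, 6.00 and 6.41 CPM in Plg WT, and Col20a1 had 0.540, 0.466 and 1.20 CPM in Plg KO and 1.50, 1.25 and 1.35 CPM in Plg WT. The groups of these 3 genes did not overlap. The 11 tested genes of the class beyond the 5 given in full had log2 changes of -1.44, for Col22a1, to 0.46, for Col6a5, with adjusted p of 0.573 to 0.999. Col22a1 was low, with 0.351, 0.117 and 0.812 CPM in Plg KO and 1.17, 2.04 and 0.384 CPM in Plg WT. Its groups overlapped, and it had 3 counts in Plg KO 2.

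Much of the variation in collagen level lay between libraries of the same group. Plg WT 2 was the highest library for 19 of 36 collagens, or 52.8%, and for 15.1% of all tested genes. Plg KO 2 was the lowest library for 19 of 36, against 14.9% of all genes. Both held for 13 collagens, highest in Plg WT 2 and lowest in Plg KO 2, and the share of all genes with both was not computed. In the fibrillar class the counts were 9 of 11 genes highest in Plg WT 2 and 8 of 11 lowest in Plg KO 2. Among basement membrane genes 2 of 9 were highest in Plg WT 2 and 3 of 9 lowest in Plg KO 2, with 5 of 9 lowest in Plg KO 1. The collagens together took 0.223%, 0.140% and 0.250% of gene counts in Plg KO 1, 2 and 3, against 0.233%, 0.354% and 0.197% in Plg WT 1, 2 and 3. The means were 0.204% ± 0.0572 in Plg KO and 0.261% ± 0.0824 in Plg WT (SD, n = 3 each), a difference within the spread between libraries. It was -0.0572 percentage points, and -0.0107 without Plg WT 2 or -0.0251 without Plg KO 2.

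**Figure D4:**
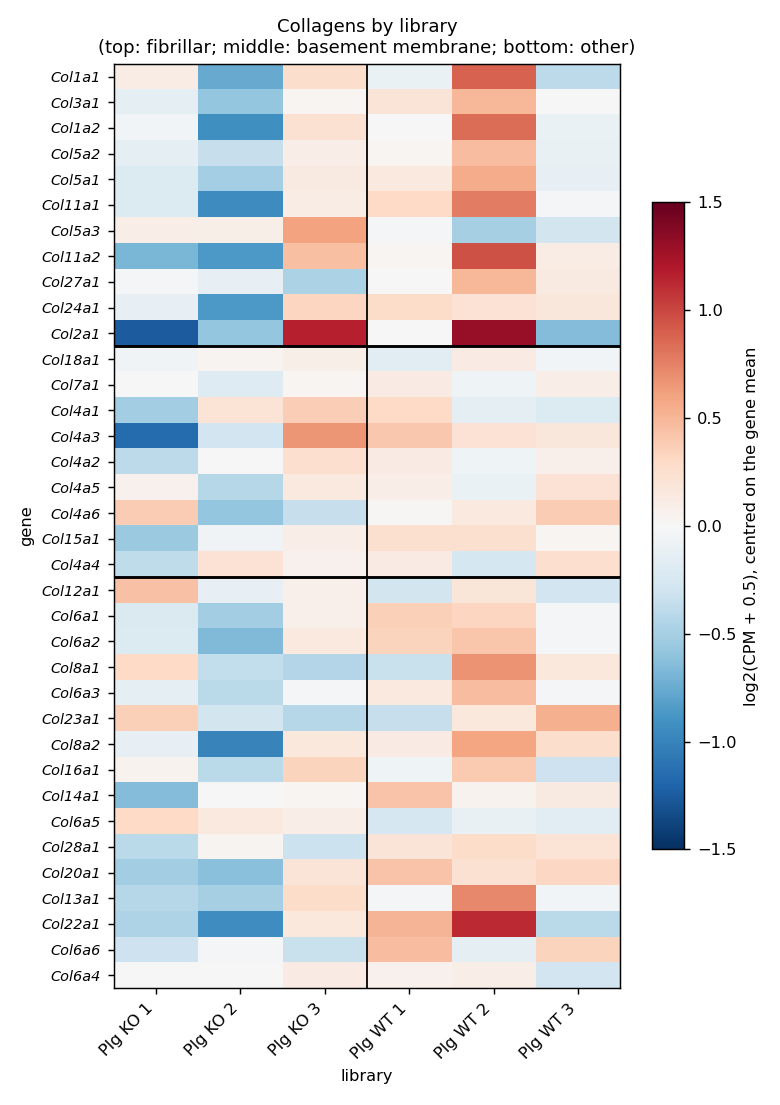
Level of each tested collagen (rows, by class and falling mean level) in each library (columns), as log2(CPM + 0.5) centred on the gene's mean over the 6 libraries, red above and blue below it. Plg WT 2 is the reddest column among fibrillar genes and Plg KO 2 the bluest.

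For Col1a1 with Col1a2, Col5a1 with Col5a2 and Col6a1 with Col6a2, the ratio between chains varied less over the libraries than the level of either chain. The further type V chain Col5a3 was not set in a ratio. Its log2 change of 0.58 was opposite in sign to those of Col5a1 (-0.41) and Col5a2 (-0.27). The ratio of Col1a1 to Col1a2 counts was 1.97, 1.98 and 1.80 in Plg KO and 1.66, 1.83 and 1.44 in Plg WT. Its highest value was 1.37 times its lowest, whereas Col1a1 itself spanned 3.13-fold and Col1a2 3.37-fold over the libraries. The ratio of Col6a1 to Col6a2 spanned 1.18-fold, against 1.85-fold and 2.14-fold for the genes, and the ratio of Col5a1 to Col5a2 1.23-fold, against 2.17-fold and 1.77-fold. Means of these ratios were 1.92 ± 0.0985 in Plg KO and 1.64 ± 0.197 in Plg WT for Col1a1 to Col1a2, and 1.91 ± 0.162 in Plg KO and 1.86 ± 0.0809 in Plg WT for Col6a1 to Col6a2. The ratio of Col1a1 to Col3a1, which belong to different molecules, spanned 1.74-fold, also less than 3.13-fold and 2.11-fold for the genes. Col8a1 and Col8a2, short network-forming collagens of vessels and cornea, did not keep a ratio, which ran from 1.51 to 3.83.

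Type IV genes lie in head-to-head pairs. By GENCODE M21, Col4a1 on the minus strand and Col4a2 on the plus strand of chromosome 8 overlap by their first 22 bases, Col4a4 and Col4a3 on chromosome 1 start 71 bases apart, and Col4a6 and Col4a5 on the X chromosome start 1308 bases apart. The ratio of Col4a1 to Col4a2 counts was 2.83, 3.54 and 3.31 in Plg KO and 3.49, 2.92 and 2.53 in Plg WT. That ratio spanned 1.40-fold, against 1.88-fold for Col4a1 and 1.61-fold for Col4a2. The ratio of Col4a3 to Col4a4 spanned 2.43-fold, less than Col4a3 (3.78-fold) and more than Col4a4 (1.91-fold). The ratio of Col4a5 to Col4a6 spanned 1.81-fold, more than Col4a5 (1.62-fold) and less than Col4a6 (2.06-fold). Among the 41 collagens, Col1a1 and Col1a2 had no close neighbour, and Col3a1 and Col5a2 lie tail to tail with 24614 bases between them. Neighbours that are not collagens were not searched. Counts were not separated by strand, so reads from the overlap of Col4a1 and Col4a2 cannot be assigned by strand.

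Promoter sequence from RefSeq (GRCm38.p6) was found for 32 of the 41 genes, in 34 windows. The 250 bases before the transcript start are shown for Col1a2 (chr6:4505368-4505617, plus strand) and Col3a1 (chr1:45311288-45311537, plus strand), abundant fibrillar genes that were highest in Plg WT 2 and lowest in Plg KO 2. Capitals mark CCAAT, the sequence of the CCAAT box, TATAAA, that of the TATA box, and GGGCGG, that of the GC box. Each was searched on both strands, and none of the matches shown overlap. They are matches of letters at any position in the window, and whether they act as promoter elements was not tested.
Col1a2: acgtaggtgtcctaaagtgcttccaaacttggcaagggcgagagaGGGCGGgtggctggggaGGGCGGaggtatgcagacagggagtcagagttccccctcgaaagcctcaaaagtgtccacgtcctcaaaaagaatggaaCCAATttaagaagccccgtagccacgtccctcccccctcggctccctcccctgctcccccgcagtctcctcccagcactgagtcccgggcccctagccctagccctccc
Col3a1: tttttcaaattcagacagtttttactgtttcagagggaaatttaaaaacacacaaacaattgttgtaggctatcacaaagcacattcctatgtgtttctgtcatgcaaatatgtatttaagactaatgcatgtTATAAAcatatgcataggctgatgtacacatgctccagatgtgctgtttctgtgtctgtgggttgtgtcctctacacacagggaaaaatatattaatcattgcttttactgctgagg

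These windows held different letters. That of Col1a2 had 2 copies of GGGCGG and 1 of CCAAT, and that of Col3a1 had 1 TATAAA and neither of the others. GGGCGG was in 64.7% of the 34 collagen windows, against 32.7% of all 32851 promoter windows. CCAAT was in 32.4%, against 33.8% of all, and TATAAA in 8.82%, against 12.4%. GGGCGG holds only G and C, and the GC content of the collagen windows ran from 35.2% to 76.4%. That of all promoter windows was not computed, so these shares are not corrected for base composition.

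Genes that fold, process, bind or receive collagen were grouped in 5 lists, of which 80 genes were tested. At an unadjusted p under 0.05 in edgeR's test, 14 of the 80 were lower and 3 higher in Plg KO. Over all genes, 4.27% were lower and 4.97% higher at that level. After adjustment edgeR called 0 of the 80, limma-voom 0 and DESeq2 5. These 5 were all lower in Plg KO, namely Fmod, Prelp, Pcolce, Serpinh1 and Agrn. DESeq2 called 2.26% of all genes, and 0.721% as lower. On simulated data DESeq2 called 44 of 17226 unchanged genes, against 4 with edgeR and 2 with limma-voom. Of the proteins that bind collagen fibrils, all 16 had a negative log2 change, with a median of -0.59, 9 were lower at an unadjusted p under 0.05 (56.2%, against 4.27% of all genes), and in 7 the Plg KO libraries lay below the Plg WT libraries (43.8%, against 7.18% of all genes). At an unadjusted p under 0.05 there were 4 lower without Plg WT 2, 5 without Plg KO 2 and 2 without both.

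Fmod encodes fibromodulin, which binds type I collagen and shapes fibril diameter. It had 30.3, 15.6 and 20.4 CPM in Plg KO, against 44.9, 66.9 and 42.1 CPM in Plg WT, with all Plg KO libraries below all Plg WT libraries. Its log2 change was -1.21 ± 0.27 (adjusted p = 0.189 in edgeR's test). Prelp, a heparin-binding relative of fibromodulin, had 13.6, 13.6 and 20.8 CPM in Plg KO, against 31.5, 26.1 and 23.7 CPM in Plg WT, with -0.76 ± 0.20. The groups did not overlap, nor did those of podocan (Podn), with 1.43, 1.86 and 1.93 CPM in Plg KO and 5.35, 3.03 and 2.76 CPM in Plg WT.

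**Figure D5:**
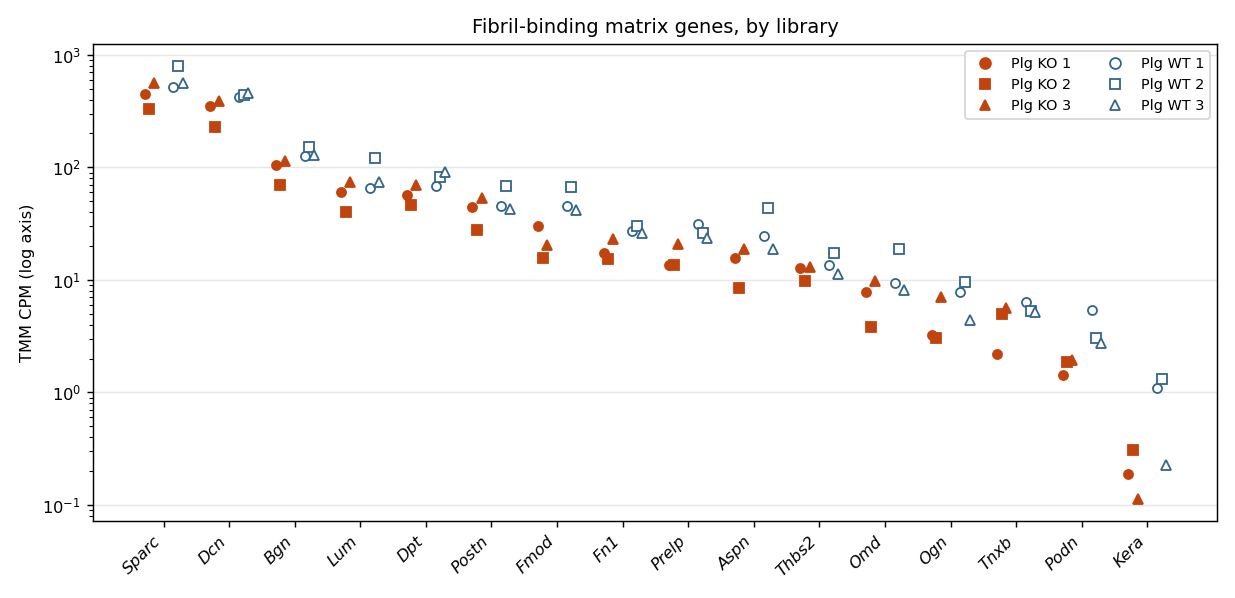
TMM CPM on a log axis (y) for 16 genes of fibril-binding matrix proteins (x), 1 point per library, Plg KO in filled and Plg WT in open symbols. In 7 genes, among them Fmod, Prelp and Podn, all Plg KO points lie below all Plg WT points.

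In the list of folding, processing and crosslinking, 3 of 29 were lower and 2 higher at an unadjusted p under 0.05 (10.3% and 6.9%, against 4.27% and 4.97% of all genes), and the median was -0.04. Serpinh1, the collagen chaperone HSP47, had 243, 220 and 251 CPM in Plg KO, against 303, 344 and 340 CPM in Plg WT, with a log2 change of -0.47 ± 0.10 (adjusted p = 0.168 in edgeR's test). Pcolce, an enhancer of procollagen trimming, had 47.5, 39.5 and 54.6 CPM in Plg KO, against 65.5, 83.9 and 73.5 CPM in Plg WT, with -0.65 ± 0.15. Its relative Pcolce2 had 6.32 ± 0.554 CPM in Plg KO and 9.36 ± 1.65 CPM in Plg WT. The libraries of the groups did not overlap in these 3 genes. In the list, Plg KO lay below Plg WT in 4 of 29 genes (13.8%, against 7.18% of all genes). It lay above in 2 (6.9%, against 7.51%), P4hb and Ppib. P4hb had 1806, 1845 and 1684 CPM in Plg KO, against 1515, 1496 and 1306 CPM in Plg WT. Ppib had 111, 114 and 101 CPM in Plg KO, against 97.2, 96.9 and 88.3 CPM in Plg WT.

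The remaining lists held fewer genes at an unadjusted p under 0.05. Of 11 collagen receptors and uptake genes, 1 was higher at an unadjusted p under 0.05 (9.09%, against 4.97% of all genes), the integrin beta chain Itgb1 with 87.4 ± 5.80 CPM in Plg KO and 73.0 ± 8.43 CPM in Plg WT. The receptor kinase Ddr1 had 98.2 ± 7.40 CPM in Plg KO and 113 ± 10.7 CPM in Plg WT, and the integrin Itga11 3.27 ± 0.715 in Plg KO and 3.80 ± 1.24 in Plg WT. Among 15 partners in basement membranes 2 were lower at that level (13.3%, against 4.27% of all genes), agrin (Agrn) with 37.1, 36.9 and 35.8 CPM in Plg KO against 47.3, 46.3 and 47.9 CPM in Plg WT, and the laminin chain Lama2 with 3.22 ± 0.767 in Plg KO and 5.14 ± 0.937 in Plg WT. Agrn had a log2 change of -0.37 ± 0.08 (adjusted p = 0.168 in edgeR's test). Lamb1, a further laminin chain, had 14.1, 14.0 and 19.4 CPM in Plg KO and 20.8, 18.5 and 20.7 CPM in Plg WT. In the list of TGF-beta signalling, the pathway known to drive collagen transcription, 0 of 10 reached an unadjusted p under 0.05. Among its members, Ccn2 had 6.11 ± 2.79 CPM in Plg KO and 9.89 ± 1.50 CPM in Plg WT, and Smad7 had 12.6 ± 1.81 CPM in Plg KO and 15.9 ± 2.34 CPM in Plg WT.

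Markers of fibroblasts also had lower summed levels in Plg KO. The summed level of 11 fibroblast markers was 584, 444 and 664 CPM in Plg KO, against 694, 787 and 740 CPM in Plg WT. The groups did not overlap, and Plg KO 2 and Plg WT 2 were again the extremes. Of the 11, which include Dcn and Lum of the fibril-binding list, 9 had a negative log2 change (81.8%, against 50.8% of all genes) and 4 were lower at an unadjusted p under 0.05 (36.4%, against 4.27%). Dcn made up most of the sum, and without it the sums were 230, 214 and 278 CPM in Plg KO and 275, 345 and 284 CPM in Plg WT, which overlap. The part of this difference in the collagen values was not tested. Bone and tooth markers summed to 89.3 to 131 CPM in Plg KO and 82.5 to 165 CPM in Plg WT, with the highest sum in Plg WT 2 and Dspp at 0 counts in all libraries. The cartilage list summed to 183 to 242 CPM in Plg KO and 103 to 216 CPM in Plg WT, nearly all of it Sox9. Without Sox9 the sums were low and went the other way, with 1.62, 1.40 and 2.02 CPM in Plg KO and 3.03, 4.96 and 3.52 CPM in Plg WT. Only 3 of the 8 cartilage genes were tested, and 2 of these had a negative log2 change. Skeletal muscle markers were 4838 CPM in Plg KO 1 and 20039 and 23272 CPM in Plg KO 2 and 3, against 11444 to 23494 CPM in Plg WT. Schwann cell markers summed to 207 to 346 CPM in Plg KO and 241 to 426 CPM in Plg WT, and all 8 had a negative log2 change. Endothelial markers summed to 91.1 to 129 CPM in Plg KO and 106 to 142 CPM in Plg WT, and mural cell markers to 408 to 817 CPM in Plg KO and 333 to 679 CPM in Plg WT. Fat cell markers summed to 87.7 to 117 CPM in Plg KO and 141 to 286 CPM in Plg WT. Of the 6 tested, 5 had a negative log2 change (83.3%, against 50.8% of all genes), with a median of -1.30 over the 6. At an unadjusted p under 0.05, 4 were lower (66.7%, against 4.27%). After adjustment edgeR called 1 of the 6 as lower, against 0.0451% of all genes. The immune list summed to 108 to 274 CPM in Plg KO and 62.1 to 64.7 CPM in Plg WT. Without S100a9, a neutrophil gene, the immune sum was 32.2 to 37.3 CPM in Plg KO and 27.9 to 48.9 CPM in Plg WT. Over all 7 immune genes, S100a9 included, 4 were positive in log2 change and 3 negative. Their log2 changes ran from -4.66 to 2.73, with a median of 0.00. At an unadjusted p under 0.05, 2 were higher and 1 lower (28.6% and 14.3%, against 4.97% and 4.27% of all genes). Salivary gland markers summed to 8479 to 10550 CPM in Plg KO and 1815 to 11248 CPM in Plg WT, with Prol1 and Prb1 at 0 counts.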

How the data were processed

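Per the labels' protocols, total RNA of gingiva was made into Nextera XT libraries, a kit that does not mark strand, and sequenced as paired ends. The submitters' processing notes list DESeq2, STAR (2.5.2a), limma and edgeR and the builds mm10 and GRCm38.p3, with no role or order; neither notes nor labels state the counting tool or gene annotation. The raw counts deposited by the authors cover 48709 genes, and 22 entries that name no gene took at most 3.55e-05% of a library and were left out. The CPM values deposited by the authors are TMM-scaled and hold the 21948 genes whose count exceeded 5 in 1 library or more. They gave whole reads for 100% of values within 0.01 read, equal to the raw counts; tested as an alternative, these reads gave 34 genes higher and 8 lower.

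The counts were tested with edgeR 4.0.16 in R 4.3.3 (quasi-likelihood test, TMM, filterByExpr, genotype only), with Benjamini-Hochberg adjustment over 17757 genes and calls under 0.05. It called 34 genes higher and 8 lower in Plg KO. SE is the size of the log2 change divided by the square root of F. The procedure was tested on simulated data with 3 libraries per group. There edgeR called 32 of 95 genes changed 2-fold, 80 of 99 changed 4-fold and 4 of 17226 unchanged genes. Alternatives used DESeq2 1.42.0, limma 3.58.1, other scaling and filters, a replicate block, a term for sex and each library left out. At these depths 3 counts equal 0.0810 to 0.117 CPM, which covers counting error only. Every library pair differed by more than sampling noise (chi-square per degree of freedom 21.4 to 111.4). The values ran from 21.4 to 102 for pairs within a group and from 30.2 to 111.4 for pairs between groups, so closeness did not follow group.

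The genes and lists were chosen with earlier results of these data known. Given in full were, per class, the 3 collagens with the highest mean CPM, the 3 with the smallest p and any at an unadjusted p under 0.05, and per partner list the 3 genes with the smallest p. A gene that this rule names is not reported here. Other genes given with values were chosen after their values were seen.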

Additional observations from a re-analysis of the deposited data

How the results depend on the processing

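No collagen was called under any alternative, which includes DESeq2, limma-voom, limma-trend, other scaling, other filters, a term for sex, the replicate block, an adjusted p under 0.10 and each library left out. At an unadjusted p under 0.05, collagens lower in Plg KO numbered 2 in the edgeR fit, 4 with limma-voom, with limma-trend (pseudocount 0.5 or 0.1) and with upper-quartile factors, 8 with no filter, 1 with a term for sex, 1 to 11 when a library was left out and 1 without both Plg KO 2 and Plg WT 2. Collagens higher numbered 1, or 0 to 1 when a library was left out. Partner genes called numbered 0, against 5 with DESeq2 and 1 (Fmod) with no filter. Fibril-binding genes lower numbered 9, or 4 to 11 when a library was left out and 2 without both Plg KO 2 and Plg WT 2. Without both these libraries, chosen after seeing the data, the medians were -0.11 over collagens, -0.045 for fibrillar and -0.14 for other collagens. When a library was left out the medians ran from -0.51 to -0.24 over collagens, from -0.60 to -0.19 for fibrillar, from -0.22 to -0.00 for basement membrane and from -0.55 to -0.24 for other collagens. The share of gene counts differed by -0.0893 to -0.0107 percentage points. With 1 library left out, the log2 change ran from -0.020 (without Plg WT 1) to 0.12 for Col18a1, from -0.54 to 0.17 for Col1a1 and from -0.12 to 0.29 for Col4a1. Without both Plg KO 2 and Plg WT 2 it was 0.42 for Col1a1, 0.15 for Col1a2 and -0.086 for Col4a1. The cause was not tested.

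Same-numbered libraries did not deviate together (correlations of -0.32, -0.04 and -0.29), so the numbers were not taken as pairs. With the replicate block edgeR called 0 collagens, counted 0 lower at an unadjusted p under 0.05 and called 2 genes higher and 0 lower over all genes. Over all genes, the calls of 34 higher and 8 lower became 274 and 128 with DESeq2, 122 and 40 with no filter, 54 and 11 with a term for sex, and 0 and 0 without both Plg KO 2 and Plg WT 2. With 1 library left out they were 184 and 35 (Plg WT 1 omitted), 32 and 6 (Plg KO 1 omitted), or at most 2 in either direction (each of the others).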
